A study of Drosophila melanogaster with 6 samples.

Results

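The follicle epithelium is the sheet of somatic cells that encloses each egg chamber of the fly ovary, and 10 of its polarity and adhesion genes were followed here among the 17559 genes counted. The genes were taken by their FlyBase symbols, and each matched 1 gene ID. All 10 passed the filter on low counts that left 8110 genes to test. The libraries were poly(A) RNA-seq of dissected ovaries, 3 from mutant females of genotype RanBP9D1 over BSC469 and 3 from control females of genotype w1118 over BSC469. BSC469 is a chromosomal deficiency that both groups carry, so the groups differ by the chromosome opposite to it. The groups may also differ on other chromosomes, since the labels do not say that the RanBP9D1 and w1118 backgrounds were matched. The labels use an older name, RanBP9, for Ipo9, the gene of an importin known to carry actin into the nucleus. Flies were kept at 25 °C, and the labels give neither their age nor the origin of the replicates. The p-values therefore measure the spread between these libraries, which may be technical. The series asks what a lower level of nuclear actin does to transcription.

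Epithelial cells sort their membrane into an apical and a lateral side with antagonistic protein modules. Crumbs (crb) and its scaffold Stardust (sdt) mark the apical side, and Bazooka (baz), the fly Par3, links polarity to the junctions. Lethal giant larvae (l(2)gl), Discs large (dlg1) and Scribble (scrib) act together on the lateral side, and loss of any of them is known to make follicle and imaginal cells multilayer. DE-cadherin (shg) holds cells together at adherens junctions. Fasciclin 2 (Fas2) and Fasciclin 3 (Fas3) are immunoglobulin-type adhesion proteins of follicle cell membranes, and Fas3 is a common marker of young follicle cells and polar cells. Slow border cells (slbo) encodes a C/EBP transcription factor that border cells need in order to leave the epithelium and migrate.

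Totals ran from 21899204 to 25700339 counts in mutant and from 21583524 to 26483578 in control libraries. Ipo9 was at 93.8 ± 3.91 CPM (library-scaled counts, with edgeR's TMM factors) in mutant and 130 ± 22.1 CPM in control ovaries (mean ± SD, n = 3 each), a log2 fold change of −0.47 (edgeR's quasi-likelihood test, adjusted p = 0.0544). DESeq2 gave Ipo9 an adjusted p of 7.05e-05 and limma-voom of 0.0235. Without control replicate 2, its highest control library, the log2 fold change was −0.32 with an adjusted p of 0.00551 in edgeR. Over all genes, 14.5% of those tested passed an adjusted p of 0.05, 8.31% higher and 6.20% lower in mutant ovaries. The groups did not overlap in 34.9% of them. The germline genes osk and vas and the somatic gene tj were present in every library. In a whole ovary, fewer cells of a type and less RNA per cell cannot be told apart.

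Of the 10 genes, l(2)gl was the only one called, and it was lower in mutant ovaries. Levels of l(2)gl were 363, 358 and 348 CPM in mutant replicates 1, 2 and 3, against 429, 441 and 432 CPM in control replicates 1, 2 and 3. The highest mutant library lay below the lowest control library, and the spread within each group was small beside the gap. The means were 356 ± 7.45 CPM in mutant and 434 ± 6.74 CPM in control ovaries (SD, n = 3 each), so that the level fell by 17.8%. The log2 fold change was −0.28 (SE 0.04, 95% interval −0.37 to −0.20, adjusted p = 0.00116, edgeR). The call held without each of the 6 libraries, with adjusted p between 0.00216 and 0.00753. The gene (FBgn0002121) spans 9839 to 21376 on the minus strand of 2L in BDGP6 (dm6), near the left end of the arm, and overlaps no other gene in the tables. Its nearest tested neighbour, the chitin deacetylase-like gene Cda5, which starts 4026 bases away, was higher in mutant ovaries, at 9.44 ± 2.97 CPM in mutant and 5.43 ± 0.123 CPM in control ovaries. Its log2 fold change was 0.80 (SE 0.22, adjusted p = 0.044, edgeR). No gene between l(2)gl and the end of the arm had enough counts to test. A called share of 1 in 10 lies near the 14.5% called over all genes.

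The partners of l(2)gl on the lateral side did not pass the threshold. Levels of scrib, a scaffold with LRR and PDZ domains, were 180, 165 and 159 CPM in mutant replicates 1 to 3, against 185, 188 and 181 CPM in control replicates 1 to 3. The mutant libraries all lay below the control libraries, but only narrowly, since mutant replicate 1 came close to control replicate 3. The log2 fold change of scrib was −0.14 (SE 0.05, 95% interval −0.25 to −0.03, adjusted p = 0.0942, edgeR), and without mutant replicate 1 it was −0.19 with an adjusted p of 0.0354, in a fit that called 9.45% of all genes. Levels of dlg1, a MAGUK scaffold, were 136, 134 and 117 CPM in mutant libraries and 132, 143 and 127 CPM in control libraries. The groups overlapped for dlg1, and its 95% interval of −0.20 to 0.09 leaves room for a fall to 0.873 times or a rise to 1.07 times the control level. scrib (FBgn0263289) spans 26536350 to 26604051 on the plus strand of 3R, 15.1 Mb from Ipo9, and dlg1 (FBgn0001624) spans 11369665 to 11409776 on the plus strand of X. With l(2)gl and scrib, the groups did not overlap in 2 of the 10 genes, against 34.9% of all genes tested.

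**Figure D1:**
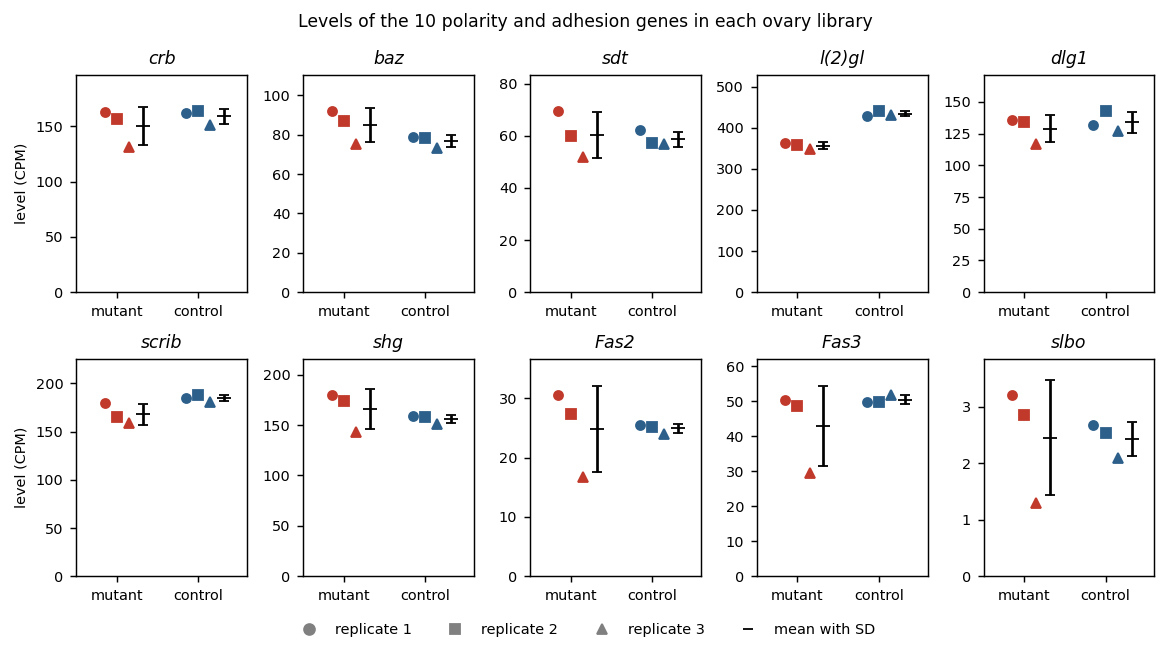
Levels of the 10 genes in CPM (vertical axes, from 0) in the 3 mutant libraries (red, left) and the 3 control libraries (blue, right). Circles, squares and triangles are replicates 1, 2 and 3, and the black bar is the mean with its SD. The l(2)gl points fall into separate groups at 348 to 363 CPM in mutant and 429 to 441 CPM in control libraries, while Fas2, Fas3 and slbo are low in mutant replicate 3.

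Genes of the apical side did not pass the threshold either. Levels of crb, the transmembrane determinant of the apical surface, were 163, 157 and 131 CPM in mutant replicates 1 to 3, against 162, 164 and 151 CPM in control replicates 1 to 3. Mutant replicates 1 and 2 lay within the control range and mutant replicate 3 below it. The log2 fold change of crb was −0.08 (SE 0.08, 95% interval −0.26 to 0.10, adjusted p = 0.566, edgeR). Levels of sdt, the scaffold that binds Crumbs, were 69.6, 59.8 and 52 CPM in mutant libraries and 62.1, 57.3 and 56.8 CPM in control libraries. The mutant values of sdt enclosed the control values on both sides, and its log2 fold change was 0.04 (SE 0.10, adjusted p = 0.821, edgeR). Levels of baz were 92.1, 86.8 and 75.4 CPM in mutant libraries and 78.9, 78.3 and 73.4 CPM in control libraries. Mutant replicates 1 and 2 stood above the controls and mutant replicate 3 among them. The log2 fold change of baz was 0.14 (SE 0.07, 95% interval −0.02 to 0.30, adjusted p = 0.224, edgeR). crb (FBgn0259685) spans 24295078 to 24314541 on 3R, 12.9 Mb from Ipo9, sdt (FBgn0261873) spans 8178549 to 8240474 on X and baz (FBgn0000163) spans 17160006 to 17200705 on X, all on the plus strand.

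For each of the 3 adhesion genes, the mutant libraries differed from each other by more than the group means did. Levels of shg, the DE-cadherin gene, were 180, 174 and 143 CPM in mutant replicates 1 to 3, against 159, 158 and 151 CPM in control replicates 1 to 3. Mutant replicates 1 and 2 stood above all controls and mutant replicate 3 below them. The log2 fold change of shg was 0.09 (SE 0.08, 95% interval −0.10 to 0.28, adjusted p = 0.530, edgeR). Levels of Fas3 were 50.4, 48.7 and 29.6 CPM in mutant libraries and 49.7, 49.9 and 51.8 CPM in control libraries. Only mutant replicate 3 departed from the narrow control range by more than the spread between controls, and the log2 fold change was −0.23 (SE 0.21, 95% interval −0.78 to 0.32, adjusted p = 0.545, edgeR). Levels of Fas2, which in neurons serves axon bundling, were 30.6, 27.3 and 16.7 CPM in mutant libraries and 25.6, 25.2 and 24 CPM in control libraries. Here mutant replicates 1 and 2 were above the controls and mutant replicate 3 below, and the log2 fold change was 0.00 (SE 0.23, 95% interval −0.57 to 0.57). The Fas2 and Fas3 intervals allow changes of 0.675 to 1.48 times and of 0.582 to 1.25 times, so neither gene is shown to be at the control level. shg (FBgn0003391) spans 21049654 to 21057197 on the minus strand of 2R, Fas3 (FBgn0000636) spans 18320102 to 18393441 on the plus strand of 2L and Fas2 (FBgn0000635) spans 4132887 to 4206093 on the minus strand of X.

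The border cell gene slbo, which only small groups of cells in an egg chamber are known to use, was the scarcest of the 10. It drew 82, 62 and 29 counts in mutant replicates 1 to 3, against 71, 55 and 49 in control replicates 1 to 3. Levels were 3.21, 2.85 and 1.29 CPM in mutant libraries and 2.67, 2.53 and 2.09 CPM in control libraries. Mutant replicate 3 was again low, and the other mutant libraries were above the controls. The log2 fold change was 0.02 (SE 0.32, 95% interval −0.69 to 0.73, adjusted p = 0.978, edgeR), an interval of 0.618 to 1.65 times the control level, so smaller changes were not detectable at this depth and spread. slbo (FBgn0005638) spans 24331522 to 24334307 on the minus strand of 2R.

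**Figure D2:**
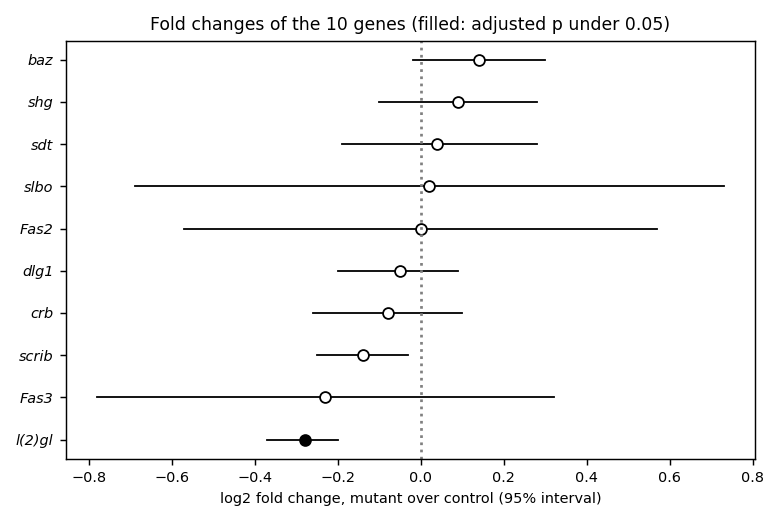
Log2 fold changes of the 10 genes, mutant over control (horizontal axis), as points with 95% intervals from the edgeR fit over all 8110 genes. The filled point is l(2)gl at −0.28, the only gene with an adjusted p under 0.05, and the intervals of Fas2, Fas3 and slbo are the widest.

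Scaled to length, the genes spanned a wide range of levels, and the group means ran in the same order in both groups except that baz and Fas3 changed places. CPM per kb of merged exon averaged 59.6 ± 1.25 in mutant and 72.5 ± 1.13 in control ovaries for l(2)gl, the most abundant (SD, n = 3 each). shg followed at 25.9 ± 3.08 and 24.4 ± 0.689 CPM per kb in mutant and control ovaries, and crb at 18.5 ± 2.06 and 19.5 ± 0.866. No library of any of these 3 genes reached the range of the next in this order. dlg1 and scrib came next at ranges of 10.2 to 12.4 and 9.23 to 10.9 CPM per kb over the 6 libraries, which overlap. baz (6.75 to 8.46) and Fas3 (4.48 to 7.83) overlapped as well, and so did Fas3 and sdt (4.71 to 6.30). Fas2 lay below them at 2.29 to 4.19 CPM per kb and slbo last at 0.465 to 1.15. The median over all tested genes with an exon length was 22.8 CPM per kb, so l(2)gl and shg lay above it and the other 8 genes below.

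**Figure D3:**
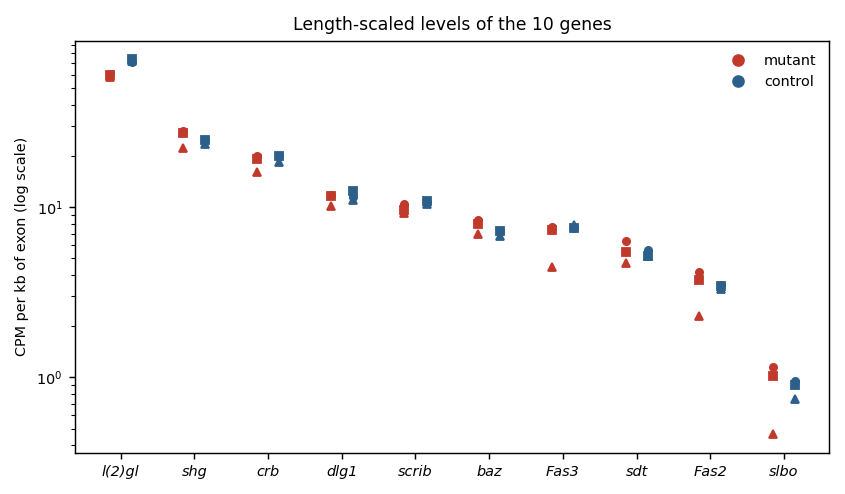
Levels in CPM per kb of merged exon (vertical axis, log scale) for the 10 genes, ordered by their mean, in mutant (red, left of each pair) and control libraries (blue, right). Circles, squares and triangles are replicates 1, 2 and 3. l(2)gl is highest at 58.2 to 73.8 CPM per kb and slbo lowest at 0.465 to 1.15.

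Mutant replicate 3 was the low library for these genes. It was the lowest of the mutant libraries in all 10 genes, against 37.9% of all genes tested, and the lowest of all 6 libraries in 9 of them, against 20.0%. The exception was baz. Relative to the mean of mutant replicates 1 and 2, mutant replicate 3 differed on the log2 scale by −1.23 for slbo, −0.79 for Fas2 and −0.74 for Fas3. For shg, sdt, crb, baz, dlg1 and scrib the difference was between −0.31 and −0.12, and for l(2)gl it was −0.05. The highest mutant library was 2.48 times the lowest for slbo, 1.83 times for Fas2 and 1.70 times for Fas3, whereas over the 10 genes the control libraries differed by 1.03 to 1.28 times. Over all tested genes the median of this ratio was 1.10 in mutant and 1.09 in control libraries.

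Against mutant replicates 1 and 2, some other gene lists were low in mutant replicate 3 and some were not. Of 13 tested follicle cell fate genes (tj, br, ct and others, none of them among the 10), 12 were lowest among mutant libraries in replicate 3, and their median difference from mutant replicates 1 and 2 was −0.51 on the log2 scale. All 11 sheath muscle markers were also lowest among mutant libraries in replicate 3, with a median difference of −0.62, but only 3 were lowest of all 6 libraries there. Their median log2 ratio to the control mean was −0.37 in mutant replicate 3 and lower, at −0.58, in control replicate 1. Their summed level was 119 to 226 CPM in mutant and 105 to 186 CPM in control libraries. The lists of related function differed less than the 10 genes, whose median difference was −0.3. Medians were −0.01 for apical partners (4 of 10 lowest among mutant libraries in replicate 3) and −0.06 for basolateral partners (6 of 10). They were −0.03 for adherens junction genes (6 of 12) and −0.07 for border cell genes (9 of 16). Septate junction genes were at −0.09 (8 of 14), other adhesion molecules at −0.13 (7 of 9 tested) and integrin adhesion genes at −0.18 (8 of 13). The 7 germline markers had a median difference of −0.05, with 4 of 7 lowest there. The 4 tested hemocyte markers were all lowest there, with a median difference of −0.76. The summed level of the 8 hemocyte markers was 316 to 374 CPM in mutant and 355 to 374 CPM in control libraries. Of the 8, Hml, NimC1, eater and He were each at 0.51 CPM or less, whereas crq drew 5051 to 6433 counts per library and weighs heavily in the sum. The 10 neuron and glia markers summed to 4.11 to 6.37 CPM in mutant and 3.53 to 4.51 CPM in control libraries, with Syt1, ChAT and VGlut at 0 in every library. The 7 trachea and other epithelium markers summed to 4.91 to 7.59 CPM in mutant and 4.81 to 6.30 CPM in control libraries. One of them, the chitin deacetylase gene serp, was called higher (1.03, SE 0.26, adjusted p = 0.0278, edgeR), a call that held only in the fit without mutant replicate 3 among those that left out 1 library. The 7 fat body markers summed to 11.9 to 22.6 CPM in mutant and 20.3 to 41.9 CPM in control libraries. The part of any of these cell types in the values of the 10 genes was not tested.

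**Figure D4:**
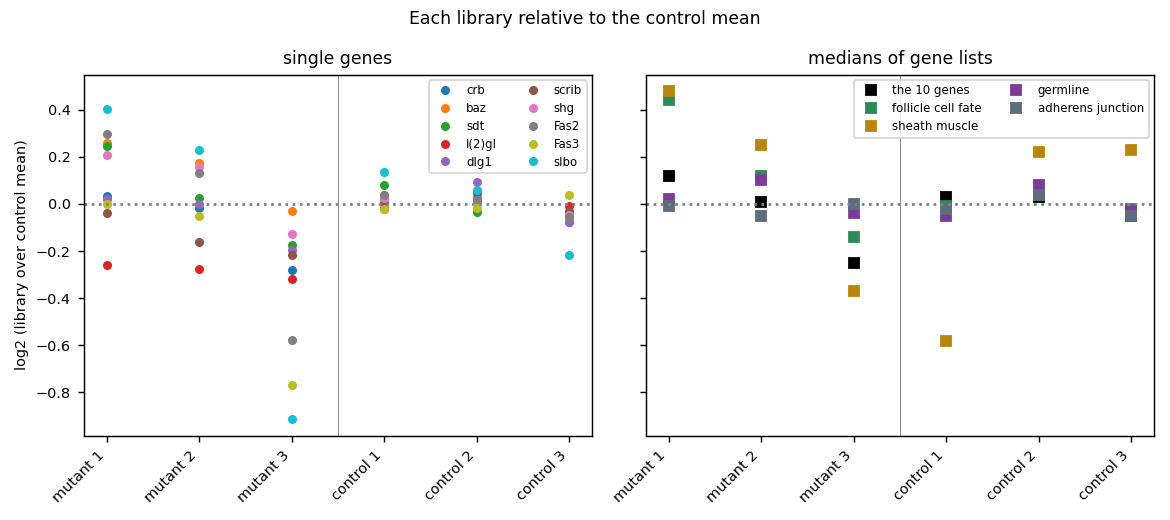
Log2 ratio of each library to the control mean (vertical axis), for the 10 genes on the left and for the medians of gene lists on the right, mutant libraries first. Mutant replicate 3 is low for Fas2, Fas3 and slbo. The follicle cell fate median is 0.44, 0.12 and −0.14 in mutant replicates 1, 2 and 3. The sheath muscle median is −0.37 in mutant replicate 3 and lower, at −0.58, in control replicate 1. The germline median stays between −0.05 and 0.10 in the 6 libraries, and l(2)gl is low in all 3 mutant libraries.

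Without mutant replicate 3, 3 of the 10 genes were called, against 17.9% of all genes tested in that fit. These were l(2)gl, again lower at −0.27, and baz and shg, both higher, by 0.22 (adjusted p = 0.0133) and 0.18 (adjusted p = 0.0171) on the log2 scale in edgeR's test. Fas2 was at 0.22 with an adjusted p of 0.0562. Mutant replicate 3 was the lowest mutant library in all 10 genes and in 12 of 13 follicle cell fate genes. Leaving it out therefore raises those mutant means by construction, and the higher calls in that fit are no separate support. Of the follicle cell fate genes, 5 were higher and 0 lower in the fit without mutant replicate 3, among them tj at 0.42 (adjusted p = 2.63e-04) and br at 0.51 (adjusted p = 0.00172). With all 6 libraries edgeR, DESeq2 and limma-voom called 0 of the 13 (1, 3 and 4 at an unadjusted p under 0.05). The share of all genes at that unadjusted threshold was not computed.

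The 10 genes were also set against 8 follicle epithelium markers (the geometric mean of tj, br, ct, eya, cas, mirr, pnt and peb), a scale chosen after the values were seen. The marker level was 23.3, 20.2 and 15 CPM in mutant replicates 1 to 3, against 14.6, 16 and 16.6 CPM in control replicates 1 to 3, so this scale lowers most genes in mutant replicates 1 and 2. This level itself is lower in mutant replicate 3 than in the other mutant libraries, so the counts that follow describe the scale and are no separate support. Per marker level, 5 of the 10 genes were lower in mutant ovaries with no overlap between groups, against 14.3% of all genes tested, and none was higher in that way. These were l(2)gl, scrib, crb, Fas2 and Fas3. Fas3 had ratios of 2.16, 2.41 and 1.97 in mutant and 3.40, 3.12 and 3.13 in control libraries, 0.679 times the control mean. On this scale all 3 mutant libraries lay below the controls for Fas3. In CPM, mutant replicates 1 and 2 were near the controls (50.4 and 48.7, against 49.7 to 51.8). Their lower ratios therefore come from the higher marker level in those libraries. Fas2 had ratios of 1.31, 1.35 and 1.12 in mutant and 1.75, 1.57 and 1.45 in control libraries. Dividing by tj alone, which is one of the 8 markers and hence no second check, left the same 5 genes apart, against 13.6% of all genes tested in either direction.

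**Figure D5:**
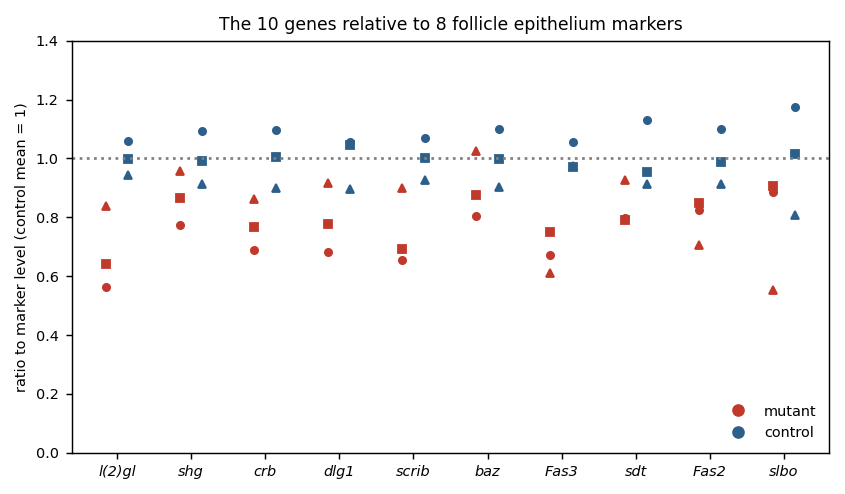
Ratio of each of the 10 genes to the geometric mean of 8 follicle epithelium markers, with the control mean set to 1 (vertical axis, from 0), in mutant (red, left of each pair) and control libraries (blue, right). Circles, squares and triangles are replicates 1, 2 and 3. The mutant points lie below all control points for l(2)gl, crb, scrib, Fas3 and Fas2.

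The wider setting was read from 8 further lists of 104 genes, of which 97 were tested. They hold polarity partners, junction and adhesion genes, 16 border cell genes and 14 follicle cell fate genes. In mutant ovaries 3 were higher and 7 lower, together 10.3% of those tested, against 14.5% over all genes. The median log2 fold change was 0.00 over these genes and −0.0033 over all genes tested. Of 10 apical partners, 1 was higher and 1 lower, and both are cortical proteins of the Hippo pathway. kibra fell to 76.1 ± 2.92 CPM in mutant ovaries, against 88.1 ± 0.856 CPM in control ovaries (−0.21, SE 0.04, adjusted p = 0.0109), and ex stood at 25.6 ± 2.56 CPM in mutant and 19.7 ± 1.93 CPM in control ovaries (0.39, SE 0.09, adjusted p = 0.0233). ex shares 448 exonic bases with crq on the opposite strand, and the strand setting of the counting is not given in the sources used here. Moesin (Moe), the most abundant of these partners, was at 675 ± 6.89 CPM in mutant and 675 ± 13.4 CPM in control ovaries. Of 10 basolateral partners, alpha-Spec, a spectrin of the membrane skeleton, was lower at 200 ± 13.3 CPM in mutant and 236 ± 4.54 CPM in control ovaries (−0.24, SE 0.05, adjusted p = 0.0123). It shares 130 exonic bases with dlt on the same strand, which had a log2 fold change of −0.40 (SE 0.04), so the value of alpha-Spec is uncertain. The 14-3-3epsilon gene, the most abundant there, did not pass (−0.01, SE 0.04).

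None of 12 adherens junction genes was called at an adjusted p of 0.05 by edgeR, and arm, the beta-catenin that binds DE-cadherin, was at 534 ± 14.5 CPM in mutant and 523 ± 10 CPM in control ovaries. At an unadjusted p under 0.05 edgeR gave 2 of the 12. The share of all genes at that threshold was not computed and is at least the 14.5% that passed the adjusted one. limma-voom called 0 and DESeq2 called 1, cno, which encodes a linker of junctions to actin and had a log2 fold change of −0.14 with an adjusted p of 0.038 there and of 0.0708 with edgeR. Of 14 septate junction genes, 3 were lower and 0 higher, with a list median of −0.11, against 6.20% of all genes tested called lower and 8.31% higher. Without mutant replicate 3 the split was 2 higher (Gli at 0.37 and bark at 0.42) and 2 lower (kune and crok). That fit called 17.9% of all genes tested. Gli and bark were lowest among mutant libraries in replicate 3. Leaving it out raises their mutant means by construction, so their higher calls are no separate support. The claudin gene kune was at 40.6 ± 1.54 CPM in mutant and 49.3 ± 1.09 CPM in control ovaries (−0.28, SE 0.05, adjusted p = 0.00608). The complement-related gene Mcr (−0.17, SE 0.05) and the Ly6 gene crok (−0.20, SE 0.05) were the others, and most fits that left out 1 library ended both calls. The sodium pump gene Atpalpha, the most abundant, did not pass (0.05, SE 0.04). Of 9 tested genes among 15 other adhesion molecules, the teneurin genes Ten-a and Ten-m were higher and 0 were lower, against the same shares over all genes. Ten-a was at 40.2 ± 1.81 CPM in mutant and 23.7 ± 2.96 CPM in control ovaries (0.77, SE 0.08, adjusted p = 4.38e-04), and Ten-m was at 55.6 ± 1.5 CPM in mutant and 49.3 ± 0.458 CPM in control ovaries (0.17, SE 0.05). Both teneurin genes share exonic bases with noncoding genes of few counts on the same strand. Fas1, a fasciclin unrelated in sequence to Fas2 and Fas3, did not pass (−0.04, SE 0.04).

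Over all genes tested, 6.20% were called lower and 8.31% higher, the shares to set beside the next 2 lists. Of 13 integrin adhesion genes, the kindlin gene Fit1 was lower (−0.14, SE 0.04, adjusted p = 0.0306) and 0 were higher, while wech, the most abundant, did not pass (−0.03, SE 0.05). Of 16 border cell genes, mbc, which activates Rac in migrating cells, was lower at 141 ± 8.17 CPM in mutant and 166 ± 7.23 CPM in control ovaries (−0.23, SE 0.05, adjusted p = 0.0166), and 0 were higher. DESeq2 also called hop, the JAK kinase gene, lower (−0.19, adjusted p = 0.0381), where edgeR gave 0.063. Stat92E, the transcription factor upstream of slbo in border cells, did not pass (−0.06, SE 0.04). The calls of kune, alpha-Spec and Ten-a held without each library. That of kibra ended without control replicate 1 (adjusted p = 0.0524) and that of mbc without control replicate 1 (0.0788) or 2 (0.0584). That of ex ended without mutant replicate 1 (0.0823) or 2 (0.0526) or control replicate 1 (0.0969) or 3 (0.0748). Those of Mcr, crok and Ten-m each ended without 5 of the 6 libraries, with adjusted p reaching 0.0932, 0.101 and 0.117, and that of Fit1 without any of the 6, at up to 0.11. Without mutant replicate 3, 13 genes of the 8 lists were higher and 5 lower, 18.6% of those tested, near the 17.9% called over all genes in that fit. Of the 13, 5 were follicle cell fate genes, a list in which most genes were lowest among mutant libraries in the library left out.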

How the data were processed

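Poly(A) RNA of dissected ovaries was measured in 6 libraries, with TRIzol extraction and a directional NEBNext Ultra II preparation, per the labels. The authors deposited raw counts per gene, 1 table per library. TopHat2, HTSeq and DESeq2 are named with the builds dm6 and BDGP6, per the submitters' processing notes. Roles, versions and the strand setting of counting were not given in the sources used here. Tables start positions at 0, so 1 was added. Symbols came from the BDGP6 annotation by gene ID (17253 genes) or by position with at least 90% reciprocal overlap (216 genes), and 17187 genes had identical coordinates. Merged exon lengths came from the same annotation.

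The filter was filterByExpr at a minimum count of 10, which kept 8110 of 17559 genes. TMM factors were 0.986 to 1.01. edgeR 4.0.16 in R 4.3.3 fitted mutant against control by quasi-likelihood with robust dispersion, and p-values were adjusted by Benjamini-Hochberg over all genes tested. The fit was tested on counts simulated gene by gene from its own means and dispersions. That simulation held no library effect shared between genes, so it cannot speak to one. The common biological coefficient of variation was 6.63%. Alternatives used DESeq2 1.42.0, limma-voom 3.58.1, other scalings and filters, a replicate block and fewer libraries. Libraries of a group differed beyond sampling noise (chi-square per degree of freedom 6.16 to 15.8), and none was merged. Molecular identifiers are not mentioned, so counts may include copies of 1 molecule. The 10 genes and all lists were chosen with earlier results of these data known. The text names the 10 genes, called members of each list (with up to 4 per list), the most abundant member of each list and the nearest tested neighbours. cno, hop, serp, Gli, bark, tj and br are named outside that rule, as are single marker genes, after their values were seen.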

Additional observations from a re-analysis of the deposited data

How the results depend on the processing

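l(2)gl stayed lower and past the threshold in all 15 fits run, at −0.30 to −0.27, with an adjusted p of up to 0.0157 without both replicates numbered 2. Leaving out 1 library in turn gave 566 to 1475 genes called, 1 to 3 of the 10 genes and 3 to 18 of the further list genes. The fit without both replicates 2 gave 516 genes and 1 list gene (Ten-a), and the replicate block gave 728 genes. Same-numbered libraries did not deviate together (correlations of −0.23, −0.263 and −0.119) and none correlated best with its own number, so the numbers are not taken to pair samples. The block ended the calls of ex, Mcr, crok, Ten-m and Fit1, at adjusted p of 0.0589, 0.0577, 0.072, 0.0781 and 0.0789. DESeq2 ended those of crok (0.0521) and Ten-m (0.0719), and the fit without a composition factor that of Fit1 (0.0535).

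Genes near 0 changed sign. Fas2 was at −0.0027 with RLE factors, −0.00041 without a composition factor, −0.0044 with DESeq2, −0.037 with limma-voom, −0.036 with the replicate block and −0.061 without both replicates 2. slbo was at −0.069 with limma-voom, −0.06 with the block and −0.07 without both replicates 2. Leaving out 1 library gave −0.18 to 0.22 for Fas2, −0.23 to 0.32 for slbo, −0.14 to 0.012 for crb, −0.071 to 0.14 for sdt and −0.089 to 0.014 for dlg1. Groups were apart in 5 of the 10 genes per marker level and in 5 per tj, against 2 in CPM. Over all genes tested the shares were 14.3% per marker level (lower only), 13.6% per tj and 34.9% in CPM. The marker scale was chosen after the values were seen, so these counts are no separate support. The highest length-scaled level was 75.3 times the lowest with exon length and 101 times with genomic length. The order below shg depended on the length used. With coding length dlg1 (25.5 CPM per kb) passed crb (22.3), and Fas3 and scrib changed places. With genomic length Fas2 (0.34) was lowest rather than slbo (0.876). The cause of these changes was not tested. slbo had the fewest counts of the 10, at 29 to 82 per library, and its part of the error due to depth was not separated from the spread between libraries.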

Other observations

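Some genes next to the polarity and adhesion genes were called higher in mutant ovaries. CG18258, whose start lies 11602 bases beyond baz on X, was at 1.41, 1.01 and 0.982 CPM in mutant replicates 1 to 3, against 0.113, 0.092 and 0.17 CPM in control replicates 1 to 3. Its log2 fold change was 3.13 (SE 0.40, adjusted p = 9.86e-04, edgeR). Uck, a uridine kinase gene 1707 bases from crb, was higher at 60.4 ± 2.14 CPM in mutant and 52.5 ± 2.42 CPM in control ovaries (0.20, SE 0.05, adjusted p = 0.0284). cpa, a capping protein gene 590 bases from shg, was higher at 140 ± 6.09 CPM in mutant and 126 ± 1.41 CPM in control ovaries (0.15, SE 0.04, adjusted p = 0.0409). RpS26, the nearest tested gene to the right of Fas3 at 47894 bases, was higher as well, at 1687 ± 80.3 CPM in mutant ovaries, against 1399 ± 32 CPM in control ovaries (0.27, SE 0.05, adjusted p = 0.0046). With Cda5 beside l(2)gl, these were 5 of the 19 nearest neighbours, all of them higher, against 8.31% of all genes tested called higher. CG18258 was near 0 in the control libraries and passed the count filter only through the mutant libraries. It could therefore be called only as higher, and its place in this count is no separate support.

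Germline markers were called in both directions. Of 7, aub (0.21, SE 0.05) and grk (0.27, SE 0.07) were higher and vas (−0.16, SE 0.04) and bam (−0.27, SE 0.07) were lower in mutant ovaries, against 8.31% of all genes tested called higher and 6.20% lower. Each of these 4 calls ended without some single libraries, reaching adjusted p of 0.0922 for aub, 0.151 for grk, 0.137 for vas and 0.106 for bam.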
